A study of Mus musculus with 12 samples.

Results

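The genes described here encode mitochondrial ribosomal proteins. They were taken as every gene symbol in the array's annotation that reads Mrpl or Mrps followed by a number, with an optional letter. That rule gave 77 genes of the 19938 genes with a probe set of their own, and it used no measured value. Of the 77, 50 encode proteins of the large ribosomal subunit and 26 proteins of the small subunit, and 1, Mrps36, belongs to neither. Mrpl53 was measured only by a probe set shared with Ccdc142 and was left out. RNA came from untreated wild-type C57BL/6 mice aged 8 weeks, from 4 blood vessels with 3 arrays each. The vessels were the ascending aorta, the coronary artery, the descending aorta and the superior mesenteric artery, which feeds the gut. The submitters' purpose was to profile vessels of different embryonic origin. Replicates are biological per the labels, which do not tell single animals from pools, so p-values cover only the spread among the arrays of a vessel.

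The mitochondrial ribosome, or mitoribosome, sits in the mitochondrial matrix and translates the few messenger RNAs of mitochondrial DNA, all of which encode subunits of the oxidative phosphorylation complexes. Its RNA comes from mitochondrial DNA, while all of its proteins are encoded in the nucleus, made in the cytosol and imported. Some of these proteins descend from bacterial ribosomal proteins and others have no bacterial counterpart. Tissues rich in mitochondria, such as heart muscle and brown fat, need many of these ribosomes, whereas the contractile smooth muscle of an arterial wall is poorer in mitochondria.

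Some arrays carried transcripts of tissue other than the vessel wall, as lists of cell type markers showed. Values are log2 levels, and a list's level is the mean over its genes. The 15 cardiomyocyte markers averaged between 9.88 and 10.18 in the coronary artery arrays, against between 3.78 and 5.52 in the other 9 arrays, of which descending aorta replicate 1 was the highest. The 10 brown adipocyte markers averaged between 6.76 and 7.71 in ascending aorta, between 6.39 and 6.50 in coronary artery, between 7.78 and 8.40 in descending aorta and between 4.30 and 5.01 in superior mesenteric artery. The list was uneven in the coronary artery arrays, where its median gene read 4.38 to 5.10 and its highest 12.25 to 12.29. The median gene read 5.78 to 7.25 in ascending aorta, 7.16 to 7.62 in descending aorta and 3.86 to 4.21 in superior mesenteric artery. Smooth muscle markers, which define an arterial wall, averaged between 5.26 and 5.64 in coronary artery and between 7.08 and 7.43 in descending aorta. They were uneven in the remaining vessels, at 6.43, 8.42 and 8.53 in ascending aorta and 9.37, 6.24 and 6.74 in superior mesenteric artery. Ascending aorta replicate 1 stood apart: its 8 B cell and plasma cell markers averaged 7.90, and its fibroblast markers averaged 5.88, below the 7.74 or more in each other array. The B cell markers reached 7.13 and 6.70 on superior mesenteric artery replicates 2 and 3, and pancreatic acinar markers averaged 9.31 in replicate 3. In whole tissue, fewer cells of a type and less RNA per cell cannot be told apart.

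Mitochondrial ribosomal protein genes were highest in descending aorta and coronary artery, intermediate in ascending aorta and lowest in superior mesenteric artery. Averaged over the 77 genes, the level was 6.11, 6.64 and 6.72 in the ascending aorta arrays, 6.93, 7.0 and 7.04 in coronary artery, 6.96, 7.24 and 7.06 in descending aorta and 5.92, 6.27 and 6.28 in superior mesenteric artery. Every coronary artery and descending aorta array thus lay above every array of the other vessels, while the lowest ascending aorta array fell within the range of superior mesenteric artery. Superior mesenteric artery had the lowest mean of the 4 vessels for 69 of 77 members, which held for 23.3% of all genes. The highest mean lay in descending aorta for 46 members, in coronary artery for 31 and in another vessel for 0. Both coronary artery and descending aorta exceeded both remaining vessels in 69 members, against 21.5% of all genes.

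A moderated F test over the 4 vessels, fitted to all 19938 genes with limma, passed an adjusted p of 0.05 for 27 of the 77 members, or 35.1%, where 4.72% of all genes passed. At an unadjusted p under 0.05 the count was 66. When the average of all B cell, plasma cell and T cell markers entered as a lymphoid covariate, 12 members passed. The B cell and plasma cell list itself averaged 4.35 in coronary artery, 4.53 in descending aorta and 6.37 in superior mesenteric artery. The T cell list averaged 4.87, 4.74 and 5.94. Adjusting for these markers can thus also remove a vessel difference, and counts with the covariate do not measure the part of lymphoid cells. The smallest F test p belonged to Mrpl47, a large-subunit protein with a bacterial homologue (limma adjusted p = 0.00129), followed by Mrpl55, Mrps35, Mrps36 and Mrps18b. The number of members that passed was 44 without ascending aorta replicate 1. It was 15 or 12 without coronary artery replicate 2 or 3, 12 or 15 without descending aorta replicate 2 or 3, and 16 or 13 without superior mesenteric artery replicate 1 or 3. Leaving out coronary artery replicate 1 or descending aorta replicate 1 gave 18 each.

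**Figure D1:**
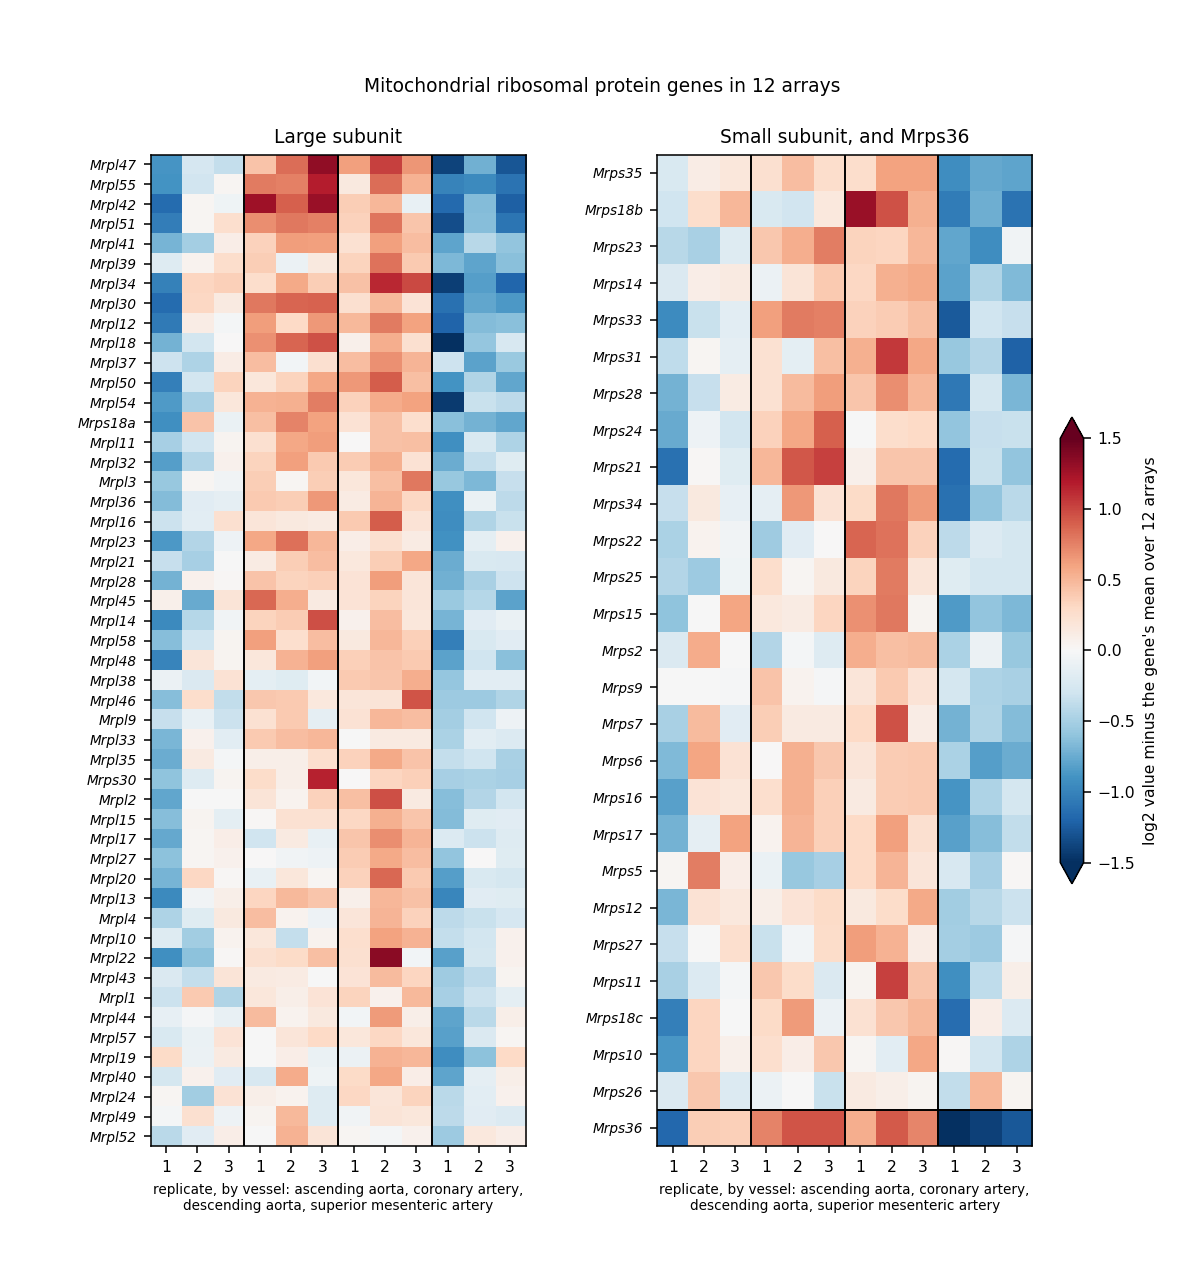
Heat map of the 77 mitochondrial ribosomal protein genes in 12 arrays: colour is the log2 value minus that gene's mean over the 12 arrays, columns are arrays grouped by vessel, and rows are sorted within each panel from the smallest F test p. The superior mesenteric artery columns and ascending aorta replicate 1 are mostly blue, and the coronary artery and descending aorta columns mostly red.

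Compared with superior mesenteric artery, coronary artery had higher levels of 23 of 77 members and lower levels of 0 (limma adjusted p under 0.05), where 2.71% of all genes were higher. The median difference, coronary artery minus superior mesenteric artery, was 0.83 over the members on the log2 scale, against -0.02 over all genes, and 75 members had a positive difference. In 57 members every coronary artery array lay above every superior mesenteric artery array, which 11.3% of all genes showed. Mrps36, whose product is now placed in the oxoglutarate dehydrogenase complex of the citric acid cycle and not in the ribosome, had the largest difference. Its values were 8.19, 8.39 and 8.39 in coronary artery, against 5.74, 6.05 and 6.18 in superior mesenteric artery. That is a difference of 2.34 ± 0.34 (SE), or 5.06-fold (limma adjusted p = 0.00165), and the arrays of the 2 vessels did not overlap.

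Among ribosomal proteins proper, the mitochondria-specific large-subunit gene Mrpl42 differed most between these vessels. It read 10.55, 10.17 and 10.57 in coronary artery, against 8.11, 8.62 and 8.05 in superior mesenteric artery, which is 4.49-fold more in coronary artery by limma (adjusted p = 0.00139). Mrpl47 read 6.48, 6.90 and 7.39 in coronary artery, against 4.67, 5.33 and 4.78 in superior mesenteric artery, a difference of 1.99 ± 0.27 (limma adjusted p = 0.000961). Both genes separated the vessels without overlap, as did Mrpl55 and Mrpl30. Mrpl55, a further mitochondria-specific large-subunit gene, stood at 7.90, 7.88 and 8.30 in coronary artery, against 6.12, 6.17 and 6.01 in superior mesenteric artery (difference 1.93 ± 0.25, limma adjusted p = 0.000752). Mrpl30, which has a bacterial homologue in the large subunit, stood at 10.72, 10.81 and 10.82 in coronary artery, against 8.81, 9.16 and 9.07 in superior mesenteric artery (difference 1.77 ± 0.31, limma adjusted p = 0.00615). These 5 genes kept their call when any 1 array was left out.

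At the threshold for coronary artery against superior mesenteric artery, Mrpl36 lay just inside with a difference of 0.94 ± 0.23 (limma adjusted p = 0.0477) and Mrpl28 just outside with 0.88 ± 0.23 (limma adjusted p = 0.0583). Both encode large-subunit proteins with bacterial homologues. The count of 23 was 14 with the lymphoid covariate. It became 43 without ascending aorta replicate 1, which enters this pair through the shared estimate of spread. The count was 11 or 8 without coronary artery replicate 2 or 3, and 12 without superior mesenteric artery replicate 1 or replicate 3. Of all genes, 3.24% passed in either direction in the full fit, 3.59% with the covariate and 6.48% without ascending aorta replicate 1. The share was 2.07% or 1.57% without coronary artery replicate 2 or 3, and 3.04% or 1.83% without superior mesenteric artery replicate 1 or 3. The median difference over the members lay between 0.71 and 0.89 over all 12 fits that left out 1 array. Mrpl36 kept its call only without ascending aorta replicate 1 or mesenteric replicate 2, and its limma adjusted p reached 0.195 in the others. Mrpl28 passed without ascending aorta replicate 1 (limma adjusted p = 0.00993).

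Descending aorta likewise had higher levels than superior mesenteric artery, for 24 of 77 members and lower levels for 0 (limma adjusted p under 0.05), where 2.84% of all genes were higher. Both pairs use the same superior mesenteric artery arrays. All 77 members had a positive difference, descending aorta minus superior mesenteric artery, with a median of 0.84 against -0.01 over all genes. In 70 members every descending aorta array lay above every superior mesenteric artery array, where 12.5% of all genes showed this. Mrps36 again had the largest difference, with 8.00, 8.37 and 8.18 in descending aorta, against the superior mesenteric artery values above, a 4.58-fold difference (limma adjusted p = 0.00389). Mrpl34, the homologue of a very small bacterial large-subunit protein, read 8.27, 8.96 and 8.82 in descending aorta, against 6.42, 7.0 and 6.64 in superior mesenteric artery (difference 2.0 ± 0.33, limma adjusted p = 0.00612). Mrps18b, 1 of 3 mouse homologues of a single bacterial small-subunit protein, read 7.34, 7.0 and 6.57 in descending aorta, against 4.99, 5.31 and 4.94 in superior mesenteric artery (difference 1.89 ± 0.25, limma adjusted p = 0.00196). None of these genes had overlapping arrays in the 2 vessels.

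Mrpl47 was 3.73-fold higher in descending aorta than in superior mesenteric artery, with 6.68, 7.08 and 6.72 in descending aorta and the superior mesenteric artery values above (limma adjusted p = 0.00245). Mrpl51, a mitochondria-specific large-subunit gene, read 9.14, 9.60 and 9.22 in descending aorta, against 7.47, 8.16 and 7.70 in superior mesenteric artery (difference 1.54 ± 0.30, limma adjusted p = 0.0151). Mrps35, a mitochondria-specific small-subunit gene, had the smallest p among the members in this pair: 5.95, 6.29 and 6.30 in descending aorta, against 4.76, 4.93 and 4.90 in superior mesenteric artery (limma adjusted p = 0.00193). The arrays of each of these genes were fully separated. Just inside the threshold lay Mrpl54 (difference 1.22 ± 0.30, limma adjusted p = 0.0497) and just outside it Mrpl30 (difference 1.23 ± 0.31, limma adjusted p = 0.0509). The count of 24 was 10 with the lymphoid covariate. It became 49 without ascending aorta replicate 1. With descending aorta replicate 1, 2 or 3 left out, 15, 9 or 14 passed, and without superior mesenteric artery replicate 1 or 3 it was 10 or 13. Of all genes, 3.2% passed in either direction in the full fit, 2.1% with the covariate and 6.83% without ascending aorta replicate 1. Without descending aorta replicate 1, 2 or 3 the share was 1.83%, 1.09% or 1.81%. It was 2.46% or 1.36% without superior mesenteric artery replicate 1 or 3. Mrpl51 lost its call without descending aorta replicate 2 (limma adjusted p = 0.0912), superior mesenteric artery replicate 1 (0.056) or superior mesenteric artery replicate 3 (0.0645). Mrpl54 lost it in 9 of the 12 fits that left out 1 array (limma adjusted p up to 0.192), and Mrpl30 gained it without ascending aorta replicate 1, 2 or 3 (limma adjusted p = 0.000456, 0.034 and 0.0494). Mrps36, Mrpl34, Mrpl47 and Mrps18b kept their call in all 12 such fits.

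**Figure D2:**
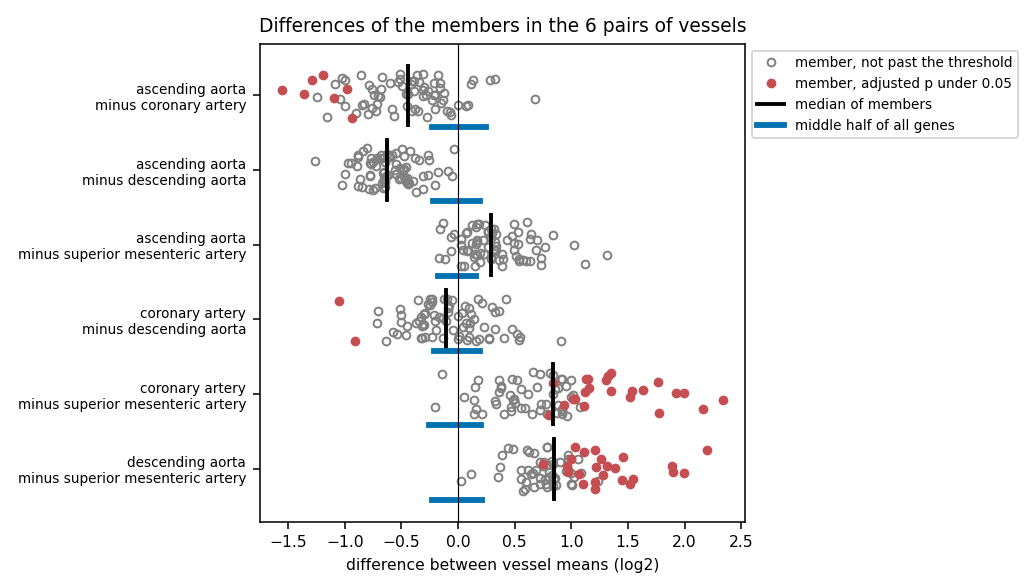
Differences between vessel means (log2, first vessel minus second) of the 77 members in the 6 pairs of vessels. Each circle is a gene, filled where the limma adjusted p was under 0.05, the black bar is the median of the members and the blue bar the interquartile range of all genes. All 77 members lie right of 0 for descending aorta minus superior mesenteric artery and left of 0 for ascending minus descending aorta, while 75 and 70 of 77 lie right of 0 for coronary artery and ascending aorta minus superior mesenteric artery.

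In the ascending aorta, 7 of 77 members were lower than in coronary artery and 0 were higher (limma adjusted p under 0.05), where 1.87% of all genes were lower. The median difference, ascending aorta minus coronary artery, was -0.44 over the members and 0.00 over all genes. In 33 members every ascending aorta array lay below every coronary artery array, against 11% of all genes. The 7 were the large-subunit genes Mrpl42, Mrpl47, Mrpl55 and Mrpl23 and the small-subunit genes Mrps33, Mrps24 and Mrps23. Mrpl42 read 8.11, 9.30 and 9.21 in ascending aorta, against 10.55, 10.17 and 10.57 in coronary artery, and was lower in ascending aorta by 1.56 ± 0.30 (limma adjusted p = 0.0166). Mrps33, a mitochondria-specific protein, read 7.18, 7.78 and 7.96 in ascending aorta, against 8.73, 8.90 and 8.88 in coronary artery (difference -1.20 ± 0.26, limma adjusted p = 0.0336). Mrpl23, whose bacterial homologue lies at the exit of the peptide tunnel, read 7.21, 7.64 and 8.00 in ascending aorta, against 8.66, 8.91 and 8.57 in coronary artery (difference -1.10 ± 0.26, limma adjusted p = 0.0473). Every one of these genes had its ascending aorta arrays below all coronary artery arrays.

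The remaining large-subunit calls, Mrpl47 and Mrpl55, differed by -1.36 ± 0.27 and -1.29 ± 0.25 between ascending aorta and coronary artery (limma adjusted p = 0.0173 and 0.016). Mrps23 lay just inside the threshold (difference -0.94 ± 0.22, limma adjusted p = 0.0476) and Mrps21 just outside (difference -1.25 ± 0.30, limma adjusted p = 0.0509). Without ascending aorta replicate 1 the count was 3 and the median difference -0.27. The count was 3, 2 or 0 without coronary artery replicate 1, 2 or 3, and 4, 3 or 4 without descending aorta replicate 1, 2 or 3. Of all genes, 2.47% passed in either direction in the full fit and 3.85% without ascending aorta replicate 1. The share was 1.64%, 1.4% or 1.26% without coronary artery replicate 1, 2 or 3. It was 1.89%, 2% or 2.04% without descending aorta replicate 1, 2 or 3. Mrpl55 lost its call without coronary artery replicate 3 (limma adjusted p = 0.0888), Mrpl42 without coronary artery replicate 1 or 3 (0.0715 and 0.0859) and Mrpl47 without coronary artery replicate 2 or 3 (0.0636 and 0.0888). Mrps33, Mrpl23 and Mrps23 lost theirs when any 1 coronary artery or descending aorta array or ascending aorta replicate 1 or 2 was left out (limma adjusted p up to 0.185), Mrps23 also without ascending aorta replicate 3 (0.0659) and Mrpl23 without superior mesenteric artery replicate 2 (0.0599). Mrps21 passed without superior mesenteric artery replicate 1 or ascending aorta replicate 2 (limma adjusted p = 0.0366 and 0.0398).

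Between ascending and descending aorta, the 2 segments of 1 vessel, no member passed: 0 of 77 in limma, with 49 at an unadjusted p under 0.05, where 0.015% of all genes passed in either direction. All 77 differences, ascending minus descending aorta, were nevertheless negative, with a median of -0.63 against -0.02 over all genes. In 47 members every ascending aorta array lay below every descending aorta array, which 9.62% of all genes showed. The widest gaps were those of Mrpl47, at -1.27 ± 0.27 (limma adjusted p = 0.296), Mrpl22, at -1.02 ± 0.35 (limma adjusted p = 0.425), and Mrpl50, at -0.99 ± 0.29 (limma adjusted p = 0.407). Mrpl47 read 5.18, 5.80 and 5.70 in ascending aorta, against 6.68, 7.08 and 6.72 in descending aorta. Mrpl22, whose bacterial homologue lines the peptide tunnel, read 3.98, 4.28 and 4.92 in ascending aorta, against 5.14, 6.25 and 4.86 in descending aorta. Mrpl50, a mitochondria-specific large-subunit protein, read 5.62, 6.36 and 6.98 in ascending aorta, against 7.30, 7.55 and 7.10 in descending aorta. The arrays of Mrpl47 and Mrpl50 did not overlap, whereas those of Mrpl22 did. The median difference was -0.41 without ascending aorta replicate 1, and the count stayed 0 whichever array was left out.

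Ascending aorta and superior mesenteric artery were the closest pair after coronary artery and descending aorta by the members' median difference, 0.29 for ascending aorta minus superior mesenteric artery against 0.00 over all genes. Again 0 of 77 members passed in limma, with 17 at an unadjusted p under 0.05, where 0.176% of all genes passed in either direction. Of the 77, 70 had a positive difference, and in 12 every ascending aorta array lay above every superior mesenteric artery array, against 4.73% of all genes. The largest differences were 1.31 ± 0.34 for Mrps36 (limma adjusted p = 0.217), 1.12 ± 0.25 for Mrps18b (0.136) and 1.03 ± 0.33 for Mrpl34 (0.382). Mrps36 read 6.27, 7.82 and 7.80 in ascending aorta, against 5.74, 6.05 and 6.18 in superior mesenteric artery, so its first ascending aorta array lay nearer to the superior mesenteric artery arrays than to its own group. Without ascending aorta replicate 1, 10 members were higher in ascending aorta and the median difference was 0.44, where 3.15% of all genes passed in either direction. In that fit Mrps36 differed by 1.83 (limma adjusted p = 0.000269), Mrpl34 by 1.48 (0.00404), Mrps18b by 1.34 (0.00866) and Mrps35, the nearest to the threshold in the full fit, by 0.97 (0.0121). The median was 0.17 without ascending aorta replicate 3 and 0.16 without superior mesenteric artery replicate 1.

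Between coronary artery and descending aorta the members split. The median difference, coronary artery minus descending aorta, was -0.11, and 31 of 77 members had a positive difference. Only Mrps18b and Mrps22, both small-subunit genes, passed and were lower in coronary artery (limma adjusted p under 0.05), where 1.61% of all genes were lower. Every coronary artery array lay below every descending aorta array in 16 members, against 12.5% of all genes, and above in 9, against 9.88% of all genes. Mrps18b read 5.81, 5.75 and 6.19 in coronary artery, against 7.34, 7.0 and 6.57 in descending aorta, 2.07-fold lower in coronary artery (limma adjusted p = 0.0436). Mrps22, a mitochondria-specific protein, read 5.36, 5.73 and 5.90 in coronary artery, against 6.76, 6.70 and 6.24 in descending aorta (difference -0.91 ± 0.21, limma adjusted p = 0.0376). Mrps2, homologous to a bacterial small-subunit protein, was the next gene outside the threshold (difference -0.70 ± 0.22, limma adjusted p = 0.137). At the other end, Mrpl42 had a difference of 0.91 ± 0.30 (limma adjusted p = 0.179), and its coronary artery arrays all lay above the descending aorta arrays at 9.64, 9.76 and 9.16.

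The count of 2 between coronary artery and descending aorta was 0 without coronary artery replicate 1 or 2, descending aorta replicate 1 or 2, or superior mesenteric artery replicate 2 or 3. It was 1 without coronary artery replicate 3, superior mesenteric artery replicate 1 or ascending aorta replicate 2. Without ascending aorta replicate 1, 4 members passed, 3 lower and 1 higher in coronary artery. Of all genes, 3.14% passed in either direction in the full fit and 5.3% without ascending aorta replicate 1. The share lay between 1.63% and 2.92% in the fits with a count of 0. The limma adjusted p of Mrps18b reached 0.191 and that of Mrps22 reached 0.162 in the fits that lost them. The median difference was -0.05 without descending aorta replicate 2.

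**Figure D3:**
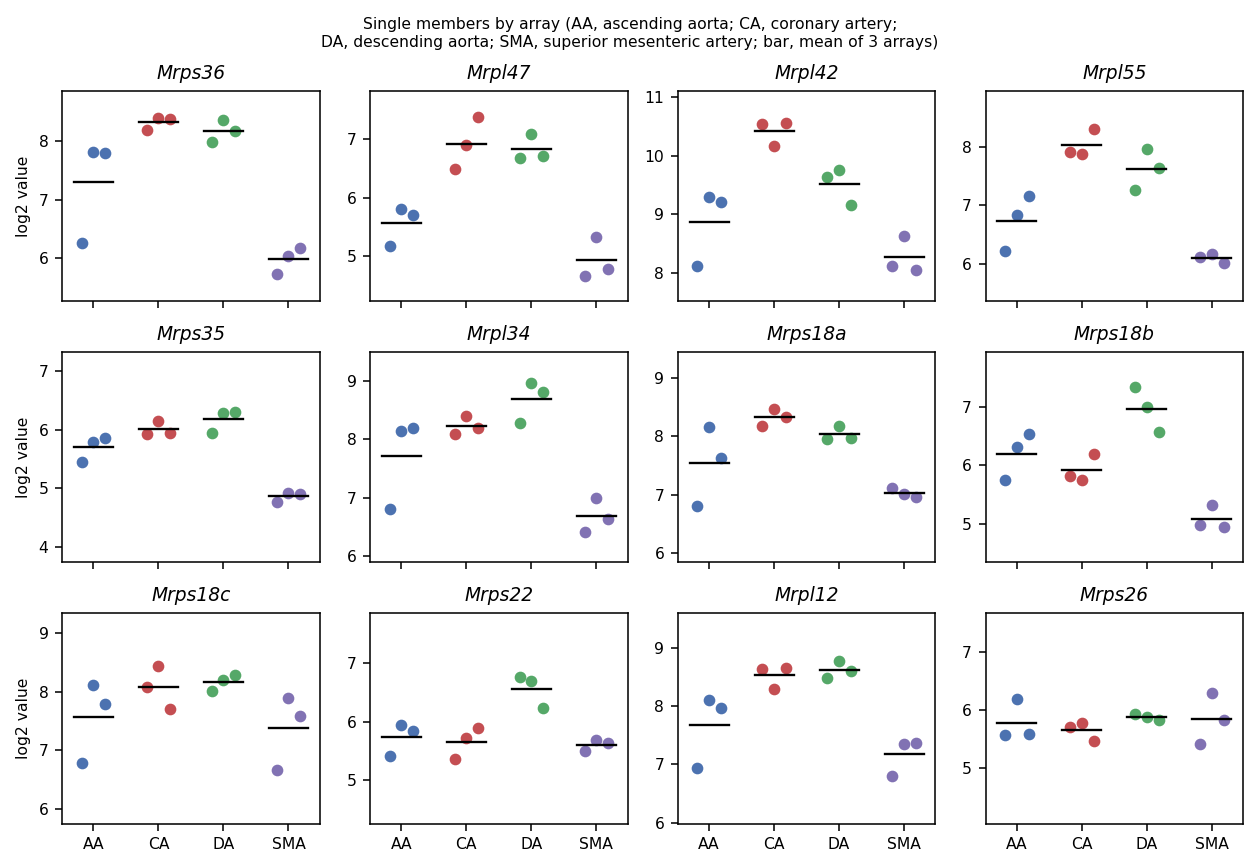
Log2 values of 12 members in the 12 arrays; each point is an array, the bar is the mean of 3 arrays, and every panel spans an equal range of log2 units. Mrps36, Mrpl47 and Mrpl55 separate coronary artery and descending aorta from superior mesenteric artery, Mrps18b and Mrps22 are highest in descending aorta, and the vessel means of Mrps26 lie close together.

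Genes of both subunits were among those that passed. Of 50 large-subunit genes, 15 were higher in coronary artery than in superior mesenteric artery and 14 in descending aorta than in superior mesenteric artery, with median differences of 0.81 and 0.82. Of 26 small-subunit genes the counts were 7 and 9, with medians of 0.83 and 0.97. By descent, the F test passed for 16 of 31 mitochondria-specific members and for 10 of 45 members with a bacterial homologue. Descending aorta exceeded superior mesenteric artery in 15 of the 31 and 8 of the 45, with medians of 0.97 and 0.83. Coronary artery exceeded superior mesenteric artery in 11 of the 31 and 11 of the 45, with medians of 0.92 and 0.73. Differences between these classes were not tested.

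The mouse has 3 homologues of the bacterial small-subunit protein S18, which occupy different places in the mitoribosome. Mrps18c sits at the bacterial position, Mrps18b elsewhere in the small subunit, and Mrps18a in the large subunit. Mrps18a and Mrps18b are counted above as mitochondria-specific, for their places in the ribosome. Mrps18a read 6.81, 8.17 and 7.64 in ascending aorta, 8.19, 8.48 and 8.34 in coronary artery, 7.95, 8.17 and 7.98 in descending aorta and 7.11, 7.02 and 6.96 in superior mesenteric artery. It was higher in coronary artery than in superior mesenteric artery by 1.30 ± 0.27 (limma adjusted p = 0.0198). Mrps18b was highest in descending aorta, as given above. Mrps18c read 6.77, 8.12 and 7.79 in ascending aorta, 8.08, 8.43 and 7.70 in coronary artery, 8.02, 8.20 and 8.28 in descending aorta and 6.65, 7.89 and 7.59 in superior mesenteric artery. Those values overlapped between most vessels, and no test passed (F test limma adjusted p = 0.473). Whether the 3 genes differ from each other in their response was not tested.

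Mrpl12 encodes the stalk protein of the large subunit, which recruits translation factors and also binds the mitochondrial RNA polymerase. It read 6.94, 8.11 and 7.96 in ascending aorta, 8.62, 8.29 and 8.65 in coronary artery, 8.48, 8.78 and 8.59 in descending aorta and 6.80, 7.35 and 7.37 in superior mesenteric artery. Coronary artery and descending aorta exceeded superior mesenteric artery by 1.35 ± 0.28 and 1.45 ± 0.28 (limma adjusted p = 0.0205 and 0.0155). Mrps30, a protein of the large subunit despite its name, read 5.29, 5.11 and 6.17 in coronary artery, against 4.51, 4.54 and 4.52 in superior mesenteric artery. Its difference of 1.0 ± 0.26 did not pass (limma adjusted p = 0.0643), although the arrays did not overlap. Mrpl45, which anchors the ribosome to the inner membrane, averaged 3.96 over the 12 arrays and was the single member below the median gene. Its coronary artery values of 4.82, 4.50 and 4.10 exceeded the superior mesenteric artery values of 3.41, 3.53 and 3.15 (limma adjusted p = 0.0351), and detection calls were not used here.

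Of the other members with the smallest F test p, the mitochondria-specific large-subunit genes Mrpl41 and Mrpl39 differed in both comparisons with superior mesenteric artery. Mrpl41 was higher in coronary artery by 1.13 ± 0.22 and in descending aorta by 1.04 ± 0.22 (limma adjusted p = 0.013 and 0.0224). Mrpl39 was higher by 0.84 ± 0.20 and 1.21 ± 0.20 (limma adjusted p = 0.0366 and 0.0052). Mrps14, which has a bacterial homologue, and Mrps23, which has none, were also higher in both vessels. Mrps14 exceeded superior mesenteric artery by 0.81 ± 0.19 in coronary artery and 1.11 ± 0.19 in descending aorta (limma adjusted p = 0.0335 and 0.00601), and Mrps23 by 1.16 ± 0.22 and 0.97 ± 0.22 (0.0121 and 0.0336). Mrps31, a mitochondria-specific small-subunit gene, passed against superior mesenteric artery in descending aorta, by 1.46 ± 0.25 (limma adjusted p = 0.00664), and had a difference of 0.92 ± 0.25 in coronary artery (limma adjusted p = 0.0719).

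At the opposite end, 5 members spanned the smallest range of vessel means. Mrps26 spanned 0.23, Mrpl49 0.37, Mrpl52 0.39, Mrpl24 0.44 and Mrps10 0.49, with F test limma adjusted p between 0.564 and 0.907. Mrps26 read 5.57, 6.19 and 5.59 in ascending aorta, 5.70, 5.79 and 5.46 in coronary artery, 5.93, 5.87 and 5.83 in descending aorta and 5.42, 6.29 and 5.84 in superior mesenteric artery. Its difference between descending aorta and superior mesenteric artery was 0.03 ± 0.24, and the arrays of these vessels overlapped. A missed threshold does not show equal levels. Of the 77 members, 43 passed neither the F test nor any of the 6 pairs.

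For 8 members a second probe set existed, and each went the same way in both comparisons with superior mesenteric artery. For Mrpl47 the second probe set gave 1.12 in coronary artery and 1.39 in descending aorta against superior mesenteric artery and did not pass (limma adjusted p = 0.123 and 0.0531). The second probe set of Mrpl51 gave 1.56 and 0.81 (limma adjusted p = 0.0783 and 0.441). For Mrpl27 the second probe set passed in descending aorta against superior mesenteric artery, with 1.52 (limma adjusted p = 0.0349), where the probe set used had 0.72 (limma adjusted p = 0.104).

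Promoters of the members were compared with those of other genes for short sequence cores. RefSeq promoter windows in GRCm38.p6, from 250 bases before to 50 bases after the annotated start, matched 68 of the 77 members and gave 74 windows. They were searched on both strands for cores bound by regulators of mitochondrial genes: CCGGAAG for GABP, GCGCATGC for NRF1, AAGATGGCG for YY1 and TCAAGGTCA for estrogen-related receptors, and for GGGCGG, bound by SP1, and the E-box CACGTG. The windows below belong to Mrpl47, the member with the smallest F test p, which held none of these letters, and to the 3 members with the next smallest p that held the GABP core and had a single window. They run from 5′ to 3′ along the gene, with matches in capitals, at chr3:32736706-32737005 (minus strand), chr17:35916391-35916690 (minus), chr6:125191950-125192249 (plus) and chr8:71464676-71464975 (plus).
Mrpl47: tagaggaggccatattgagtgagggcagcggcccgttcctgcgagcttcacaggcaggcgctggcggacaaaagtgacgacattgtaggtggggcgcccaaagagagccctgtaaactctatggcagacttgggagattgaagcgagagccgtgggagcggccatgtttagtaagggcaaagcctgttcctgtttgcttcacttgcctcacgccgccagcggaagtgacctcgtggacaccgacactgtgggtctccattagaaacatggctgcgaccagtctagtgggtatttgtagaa
Mrps18b: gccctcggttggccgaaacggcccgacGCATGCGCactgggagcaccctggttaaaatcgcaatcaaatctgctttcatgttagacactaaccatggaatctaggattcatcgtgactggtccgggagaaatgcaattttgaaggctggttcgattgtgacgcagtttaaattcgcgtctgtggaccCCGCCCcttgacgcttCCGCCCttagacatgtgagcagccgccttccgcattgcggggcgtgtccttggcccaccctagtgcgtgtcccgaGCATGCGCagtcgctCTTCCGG
Mrpl51: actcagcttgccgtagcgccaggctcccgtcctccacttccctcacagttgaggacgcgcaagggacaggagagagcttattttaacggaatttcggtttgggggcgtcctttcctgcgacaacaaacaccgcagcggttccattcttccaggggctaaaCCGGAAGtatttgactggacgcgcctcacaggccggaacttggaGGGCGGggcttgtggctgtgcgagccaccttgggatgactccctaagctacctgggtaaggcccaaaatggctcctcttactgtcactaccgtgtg
Mrpl34: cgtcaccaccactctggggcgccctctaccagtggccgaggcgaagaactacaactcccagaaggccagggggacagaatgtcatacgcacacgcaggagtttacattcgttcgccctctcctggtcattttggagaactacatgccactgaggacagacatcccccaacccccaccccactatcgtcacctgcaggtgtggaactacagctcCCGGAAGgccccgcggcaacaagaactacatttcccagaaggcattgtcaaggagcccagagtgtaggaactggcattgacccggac

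In these windows the GABP core began 90 bases before the start in Mrpl51 and 37 before it in Mrpl34. Mrps18b held it on the opposite strand, beside matches to the NRF1 and SP1 cores, also on that strand. Over all 74 member windows, 33.8% held the GABP core, against 11.6% of 21263 windows of protein-coding genes, 8.86% of all 32851 windows and 25.8% of 62 windows of oxidative phosphorylation genes. The YY1 core stood in 10.8% of member windows, 1.83% of protein-coding windows, 1.4% of all windows and 11.3% of oxidative phosphorylation windows. For the NRF1 core these shares were 10.8%, 3.52%, 2.71% and 16.1%. The receptor site was in 0 of the 74 windows, against 0.334% of protein-coding, 0.423% of all and 3.23% of oxidative phosphorylation windows. The SP1 core was in 52.7% of member windows, 46.2% of protein-coding, 35.7% of all and 40.3% of oxidative phosphorylation windows. For the E-box the shares were 9.46%, 7.84%, 7.15% and 6.45%. Median GC content was 58.5% in member windows, 56.3% in protein-coding windows and 52.7% in all windows, and its part in these shares was not tested. The GABP core was in 35.7% of 28 windows of members higher in coronary artery or descending aorta than in superior mesenteric artery, and in 32.6% of the other 46. For these windows of higher members against the other 46, the shares were 17.9% against 6.52% for YY1 and 7.14% against 13% for NRF1. They were 42.9% against 58.7% for SP1, 7.14% against 10.9% for the E-box and 0 in both for the receptor site. None of these differences in share was tested. A match is a string of letters and shows no binding.

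Some genes in other parts of the mitochondrial translation apparatus also passed the threshold. Over all genes, 2.84% were higher in descending aorta than in superior mesenteric artery, and 1.61% were lower in coronary artery than in descending aorta. Of 4 measured mitoribosome subunits with other symbols, Ptcd3 and Gadd45gip1 were higher in descending aorta than in superior mesenteric artery, by 0.97 ± 0.23 and 0.66 ± 0.16 (limma adjusted p = 0.0421 and 0.0468), and Dap3 and Chchd1 passed in no pair. Of 15 translation factors 3 were higher in that pair: Tufm, the elongation factor that brings transfer RNA to the ribosome, by 1.29 ± 0.25 (limma adjusted p = 0.0144), Gfm1, the elongation factor of translocation, by 1.13 ± 0.24 (0.0224), and Guf1 by 0.76 ± 0.19 (0.0474). Of 19 mitochondrial aminoacyl-tRNA synthetases, which load transfer RNAs, Rars2 and Iars2 were higher in descending aorta than in superior mesenteric artery, each by 0.89 (limma adjusted p = 0.0132 and 0.0256), and lower in coronary artery than in descending aorta, each by 0.86 (0.0133 and 0.0301). Of 23 assembly factors 1 passed, Mpv17l2, with a mean of 7.12 in coronary artery and 7.98 in descending aorta (limma adjusted p = 0.045). Of 10 genes for transcription and replication of mitochondrial DNA 1 passed, Tfb2m, a transcription factor for that DNA, higher in descending aorta than in superior mesenteric artery by 1.03 ± 0.22 (limma adjusted p = 0.0227). Median differences in descending aorta and coronary artery against superior mesenteric artery were 0.69 and 0.47 for translation factors. They were 0.92 and 0.89 for the 4 subunits with other symbols, and 0.34 and 0.11 for synthetases. For assembly factors they were 0.355 and 0.09, and for the mitochondrial DNA genes 0.31 and 0.37. No gene of these lists passed for coronary artery against superior mesenteric artery, where 2.71% of all genes were higher and 0.527% lower. The F test passed for 1 translation factor, 2 synthetases and 0 genes of the other lists in this paragraph, against 4.72% of all genes. Whether these lists differ from the ribosomal proteins was not tested.

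Oxidative phosphorylation complexes combine a few subunits made on the mitoribosome with many encoded in the nucleus, and the nuclear-encoded ones too were highest in coronary artery and descending aorta. Of 69 nuclear-encoded oxidative phosphorylation subunits, 64 passed the F test. In coronary artery 64 were higher than in superior mesenteric artery, with a median difference of 1.60, and in descending aorta 58 were, with a median of 1.53, where the ribosomal members had 0.83 and 0.84. Cycs, cytochrome c, was 5.68-fold higher in coronary artery and 6.26-fold higher in descending aorta than in superior mesenteric artery (limma adjusted p = 0.00165 and 0.00214). Of 28 mitochondrially encoded genes, 2 had a probe set of their own and 0 passed the F test in limma, with 0 at an unadjusted p under 0.05. Both had every coronary artery and every descending aorta array above every superior mesenteric artery array, against 11.3% and 12.5% of all genes. Their median differences were 0.23 and 0.27. Of 58 cytosolic ribosomal protein genes, 1 passed the F test. It was Rpl3l, a paralogue used in striated muscle, 18.1-fold higher in coronary artery than in superior mesenteric artery (limma adjusted p = 3.62e-06). Rps4l passed in 1 pair, higher in descending aorta than in superior mesenteric artery by 1.10 ± 0.24 (limma adjusted p = 0.0235). The list's median differences were -0.07 in coronary artery and -0.14 in descending aorta against superior mesenteric artery. Its median gene read 10.6 to 11.0 over the arrays, against 5.7 to 7.1 for the members. The 2 mitochondrially encoded genes averaged 11.04 to 11.55. Whether such high levels narrowed the differences was not tested.

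**Figure D4:**
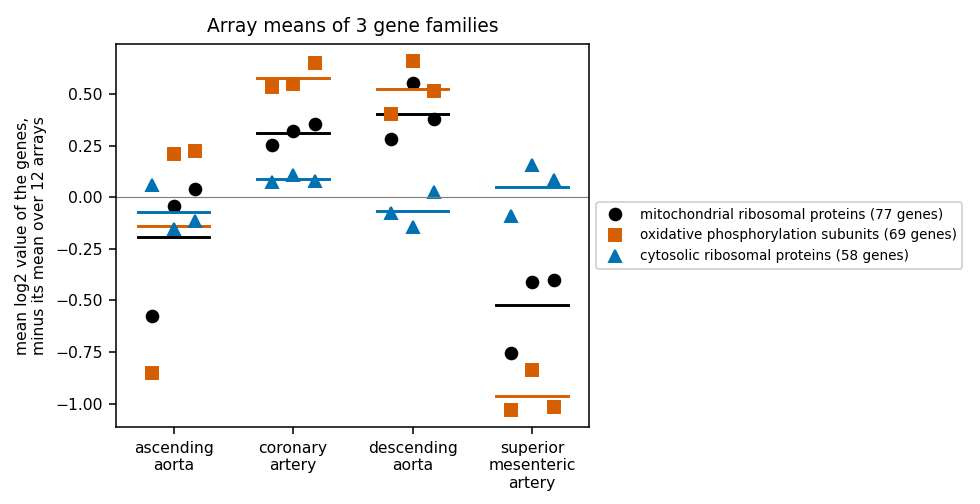
Array means of 3 gene families, each minus its own mean over the 12 arrays (log2); points are arrays and bars are means of 3 arrays. Oxidative phosphorylation subunits and mitochondrial ribosomal proteins are high in coronary artery and descending aorta and low in superior mesenteric artery and ascending aorta replicate 1, while cytosolic ribosomal proteins stay near 0.

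Among 10 nuclear regulators of mitochondrial genes, Ppara and Ppargc1b passed the F test, and Nrf1, Gabpa, Yy1 and Esrra did not (limma adjusted p between 0.357 and 0.957). Ppara, a receptor that controls fatty acid oxidation, averaged 5.65 ± 0.285 in ascending aorta, 4.62 ± 0.198 in coronary artery, 5.98 ± 0.429 in descending aorta and 3.99 ± 0.19 in superior mesenteric artery (SD, n = 3 each). Its difference between descending aorta and superior mesenteric artery was 1.99 ± 0.24 (limma adjusted p = 0.00104). Ppargc1b, a coactivator of mitochondrial biogenesis, was higher by 1.23 ± 0.23 in the same pair (limma adjusted p = 0.012). Ppara was lower in coronary artery than in descending aorta (difference -1.36 ± 0.24, limma adjusted p = 0.00587).

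Markers of other cell types also differed between the vessels. All 15 cardiomyocyte markers passed the F test, and 14 of them were higher in coronary artery than in superior mesenteric artery. In descending aorta against superior mesenteric artery 0 of the 15 passed in limma, and the list averaged 4.42 in descending aorta and 4.27 in superior mesenteric artery. Of 10 brown adipocyte markers, 7 were higher in descending aorta than in superior mesenteric artery, 5 in ascending aorta and 3 in coronary artery. In coronary artery against descending aorta, 4 of these markers were lower and 1 was higher, with differences from -6.72 to 1.57. The mean of the brown adipocyte list was 7.38 for ascending aorta and 6.45 for coronary artery. The members averaged 6.49 and 6.99 in these vessels. Of 10 markers shared by all adipocytes, 7 were lower in coronary artery than in descending aorta and 6 were higher in descending aorta than in superior mesenteric artery. Of 12 smooth muscle markers, 3 were lower in coronary artery than in superior mesenteric artery. None of the 8 B cell and plasma cell markers passed in a pair in limma, with 2 at an unadjusted p under 0.05 for coronary artery and 2 for descending aorta against superior mesenteric artery. Their list averaged between 3.80 and 5.0 in the coronary artery and descending aorta arrays, below the 5.28 to 7.13 of superior mesenteric artery. Pancreatic acinar markers averaged 4.68 or less in every array other than superior mesenteric artery replicate 3. The median difference of the members between descending aorta and superior mesenteric artery was 0.95 without that array. With the lymphoid covariate given above, 14 members passed for coronary artery and 10 for descending aorta against superior mesenteric artery, all higher. The part of heart muscle and fat in the results for the members was not tested. The covariate cannot separate the part of lymphoid cells from that of vessel, because the lymphoid lists differed between the vessels.

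**Figure D5:**
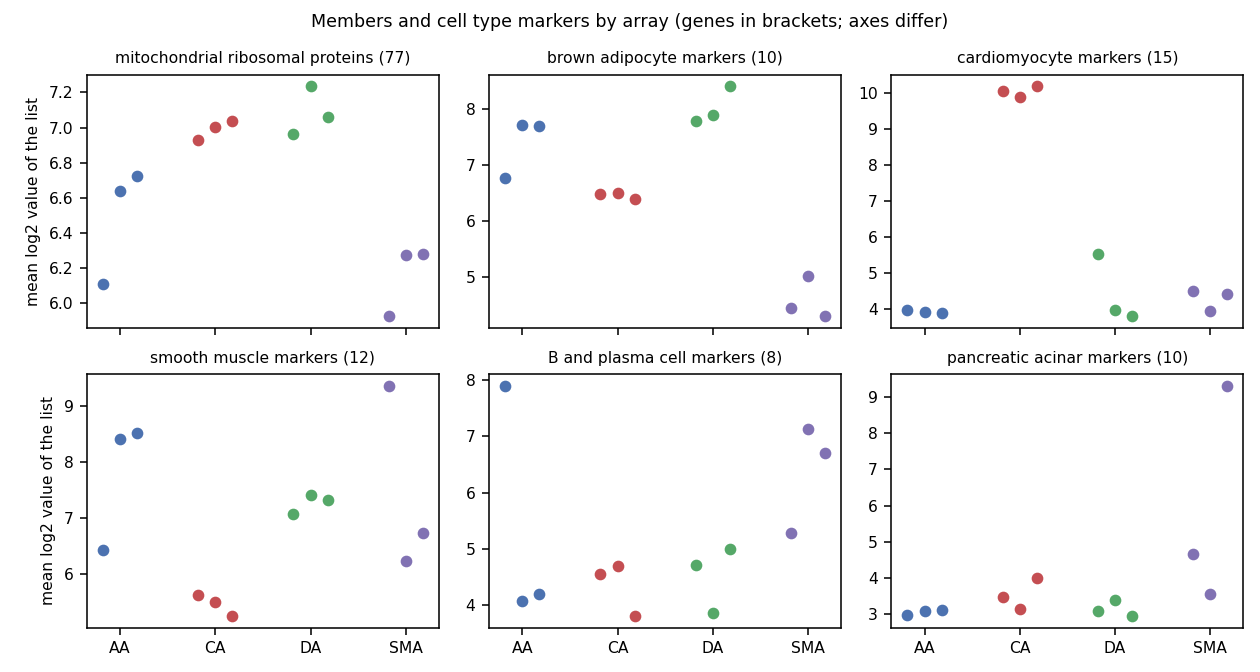
Mean log2 level of the 77 members and of 5 lists of cell type markers in each of the 12 arrays (AA, ascending aorta; CA, coronary artery; DA, descending aorta; SMA, superior mesenteric artery; the vertical axes differ). Cardiomyocyte markers are highest in coronary artery, followed at a distance by descending aorta replicate 1, and brown adipocyte markers are lowest in superior mesenteric artery. B cell markers are high in ascending aorta replicate 1 and superior mesenteric artery replicates 2 and 3.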

How the data were processed

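Total RNA from 12 vessel samples was hybridised to Affymetrix mouse arrays, per the labels. The authors deposited 1 table of log2 values for 35556 probe sets, and RMA, which does background correction, normalization and probe summary, and Partek 6.6 are named in the submitters' processing notes, with no order. Of the probe sets, 21789 had 1 gene symbol in the platform annotation, 1621 had several and 12146 had none, and only the first kind was used. The probe set with the highest mean stood for each gene, which gave 19938 genes. Gene identifiers of 21698 were found in the GRCm38.p6 table, and 0 symbols changed.

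In limma 3.58.1 (R 4.3.3), a mean per vessel was fitted to the 12 arrays, with 8 residual degrees of freedom. The F test and 6 pairs were adjusted by Benjamini-Hochberg within each comparison over all genes, with a threshold of 0.05. Differences are the first vessel minus the second. Array medians lay between 4.04 and 4.18, and 3 arrays per vessel limit the precision. The procedure was tested on simulated data with independent noise, in which every added change exceeded the median differences of the members. Recovery of smaller changes was not tested. Members named were, per pair, the 5 with the largest difference past the threshold (3 where none passed), the 15 smallest F test p, the 5 smallest ranges, Mrps18a, Mrps18b, Mrps18c, Mrps30, Mrps36, Mrpl12, and those beside the threshold. Mrpl27, Mrpl45, Mrps24 and the list genes that did not pass fall outside this rule and were chosen after their values were seen. Members and lists were chosen with earlier results of these data known. Same-numbered replicates did not deviate together, and numbers were not taken as pairs, although this does not exclude a shared animal. Figures were drawn with matplotlib 3.10.9.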

Additional observations from a re-analysis of the deposited data

How the results depend on the processing

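No median over the members changed direction under the alternatives run, nor did the differences of members named for their size in a pair or for lying beside the threshold, while counts past the threshold moved. Differences of other named members were not rerun. In the F test 27 members passed, with 40 under array weights, 12 with the mean of the lymphoid lists as a covariate and 6 at a threshold of 0.01. For ascending aorta against coronary artery 7 passed, with 11 under the replicate number as a block, 3 without 3 arrays with high marker lists (ascending aorta replicate 1 for B cells, descending aorta replicate 1 for cardiomyocytes and mesenteric replicate 3 for acinar cells; the coronary artery arrays and mesenteric replicate 2, also high in markers, were kept), and 0 at 0.01 or when the pair's 6 arrays were fitted alone. Over all genes, 2.47% passed in that pair in either direction, with 2.47% under the block and 3.34% without the 3 arrays. The share was 1.14% at 0.01 and 1.26% with the pair's arrays alone. For ascending aorta against superior mesenteric artery 0 passed, with 8 under array weights and 5 without the 3 arrays, where the median difference was 0.54 in place of 0.29. The shares of all genes were 0.176% in the full fit, 2.22% under array weights and 1.66% without the 3 arrays. For coronary artery against descending aorta 2 passed, with 0 after quantile normalization, at 0.01, with the block or without the 3 arrays, and 4 under array weights or with only the pair's arrays. In either fit those 4 were 3 lower and 1 higher in coronary artery. The shares of all genes in either direction were 3.14% in the full fit, 5.49% under array weights and 6.32% with only the pair's arrays. They were 2.78%, 1.62%, 2.63% and 3.63% in the fits with 0, in the order given. For coronary artery against superior mesenteric artery 23 passed, with 14 under the covariate and 7 at 0.01, where the shares of all genes were 3.24%, 3.59% and 1.52%. For descending aorta against superior mesenteric artery 24 passed, with 46 under array weights, 10 under the covariate and 9 at 0.01. The shares of all genes there were 3.2%, 6.8%, 2.1% and 1.18%. Leaving out 1 array at a time gave 12 to 44, 0 to 10, 0 to 10, 0 to 4, 8 to 43 and 9 to 49 for these 6 counts in turn, and 0 for ascending against descending aorta. Same-numbered arrays of different vessels had deviations correlated by -0.251 to 0.0889, with 0 of 18 pairs over 0.1. This cannot exclude a shared animal, because tissue carried by single arrays also enters the deviations. The block gave 29 in the F test. Against superior mesenteric artery it gave 26 for coronary artery and 33 for descending aorta, where 3.18% and 3.21% of all genes passed in either direction. The cause of these shifts was not tested. Signal over background could not be judged without detection calls.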
